A study of Homo sapiens with 11 samples.

Results

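The HOXB genes described here are the 8 members HOXB2 to HOXB9, found by symbol in 2 RNA-seq abundance tables of the human cell line ARP1, a myeloma line of IgA kappa type. All 8 were among the 14458 genes of the knockdown table, and 5 of them were among the 11062 genes of the overexpression table. The members were chosen by knockdown values already known, in which HOXB9 and HOXB8 led, so their shRNA against scramble values are a description and carry no test here. Each abundance is taken here to be of FPKM type, that is, scaled by the authors for gene length and depth, in a unit the headers do not name.

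PHF19 shRNA cells (n = 3) were set against scramble control cells (n = 3), and PHF19 overexpression cells (n = 2) against cells with the empty PCDH vector (n = 3). The labels describe lentivirus packaged in HEK293T cells for the overexpression and empty vector plasmids and give the same text for shRNA and scramble, so how the shRNA was delivered is not given, and neither is the promoter that drives PHF19 nor whether the 3 shRNA libraries share 1 hairpin. Cells overexpressing PHF19 were sorted, per the design text, which does not say so of the empty vector cells. The descriptions of all overexpression samples end in F and those of all empty vector samples in S, with no meaning given, so a difference marked by these endings and the group cannot be told apart. The genotype tag of the shRNA and scramble samples repeats the overexpression wording, so the groups follow the sample titles. Nothing says that replicates were separate cultures, so p-values measure the spread between these libraries.

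HOX genes encode homeodomain transcription factors that give cells along the head-to-tail axis of the embryo their position. They lie in 4 clusters, HOXA to HOXD, and the order of genes along a cluster follows the order of their domains in the body, low numbers towards the head. Polycomb repressive complex 2 (PRC2), for which PHF19 is an accessory subunit, methylates histone H3 on lysine 27 and keeps HOX clusters silent in many cell types. HOXB genes are active in blood stem and progenitor cells and decline as blood cells mature.

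The cluster on chromosome 17 also holds the genes of miR-10a, beside HOXB4, and miR-196a-1, beyond HOXB9. Neither microRNA was measured in these gene tables. Their mature sequences are shown because miR-196a pairs along its whole length with HOXB8, 1 of the members higher in shRNA libraries. Both genes are on the minus strand, as are the 8 members. The sequences are from RefSeq (GRCh38.p14), and the HOXB8 site is from the 3′ UTR in GENCODE 29 (GRCh38). Capitals mark the seed, bases 2 to 8 counted from the 5′ end, and in the HOXB8 site the 7 bases opposite it.
hsa-miR-10a-5p: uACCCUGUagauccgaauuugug
hsa-miR-196a-5p: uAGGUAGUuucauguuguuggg
HOXB8 site: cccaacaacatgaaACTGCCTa
Of the 22 positions of the HOXB8 site, 21 pair with miR-196a-5p by standard base pairing and 1 is a G:U wobble. An exact complement of the miR-196a seed, ACTACCT on the mRNA strand, was found in the 3′ UTRs of HOXB6 and HOXB7, and in 7.56% of 19552 genes with an annotated 3′ UTR. The complement of the miR-10a seed, ACAGGGT, was found in the 3′ UTR of HOXB3 among the members, and in 13% of all those genes. These matches describe sequence only.

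PHF19 itself was read first as a check of the labels. PHF19 had 75.22, 102.81 and 107.73 in shRNA libraries, against 112.55, 151.69 and 122.95 in scramble libraries. The groups did not overlap, and the difference of -0.44 on the log2(abundance + 1) scale (SE 0.17) did not pass limma across all genes (adjusted p = 0.147, and 0.0445 with the replicate number as a block). PHF19 had 227 and 213 in overexpression libraries, against 111, 119 and 115 in empty vector libraries (difference 0.93, limma adjusted p = 0.0438). That call ended with 4 other settings (adjusted p 0.0532 to 0.156) and without either overexpression library, empty vector replicate 3 or empty vector replicate 4 (adjusted p 0.149 to 0.264).

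The libraries carried the markers of plasma cells. Of 11 plasma cell and myeloma markers, 10 reached an abundance of 1 in shRNA and in scramble libraries, with sums of 1460 to 1880 and 1830 to 2050. CD27 stayed under 1. Markers of T cells, monocytes, B cells, epithelium and fibroblasts, of which 9 of 14 were listed, summed to 8.4 to 11.3 in shRNA and 14.4 to 20.8 in scramble libraries. KRT18, an epithelial keratin of that list, was at 4.79 to 5.51 in shRNA and 9.32 to 12.99 in scramble libraries. The part of these shifts in the values below was not tested. In bulk RNA, fewer cells of a type and less RNA per cell cannot be told apart. The listed abundances of all genes summed to 501348 to 524966 in shRNA and 470294 to 526068 in scramble libraries, and read depth is unknown.

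In ARP1 cells HOXB9, a regulator of thoracic patterning, was the most abundant of the 8 members, at 81.9 ± 4.45 in shRNA and 45.2 ± 7.25 in scramble libraries (SD, n = 3 each). HOXB7, which has been linked to blood vessel growth in myeloma, came next at 22.7 ± 0.26 in shRNA and 23.3 ± 2.61 in scramble libraries. HOXB2, a hindbrain gene, was lowest at 0.903 ± 0.32 and 0.357 ± 0.0808. These levels are taken to be per length, and setting them beside each other between genes rests on that.

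The order in scramble libraries was HOXB9, HOXB7, HOXB6, HOXB4, HOXB8, HOXB3, HOXB5 and HOXB2. No 2 neighbours in that order overlapped over the 3 scramble libraries, so the order was the same in each of them. In shRNA libraries the order of the means was the same, but HOXB7 and HOXB6 overlapped, as did HOXB5 and HOXB2. The levels did not follow the positions evenly: HOXB8, between HOXB7 and HOXB9 on the chromosome, was lower than either in all 6 libraries.

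**Figure D1:**
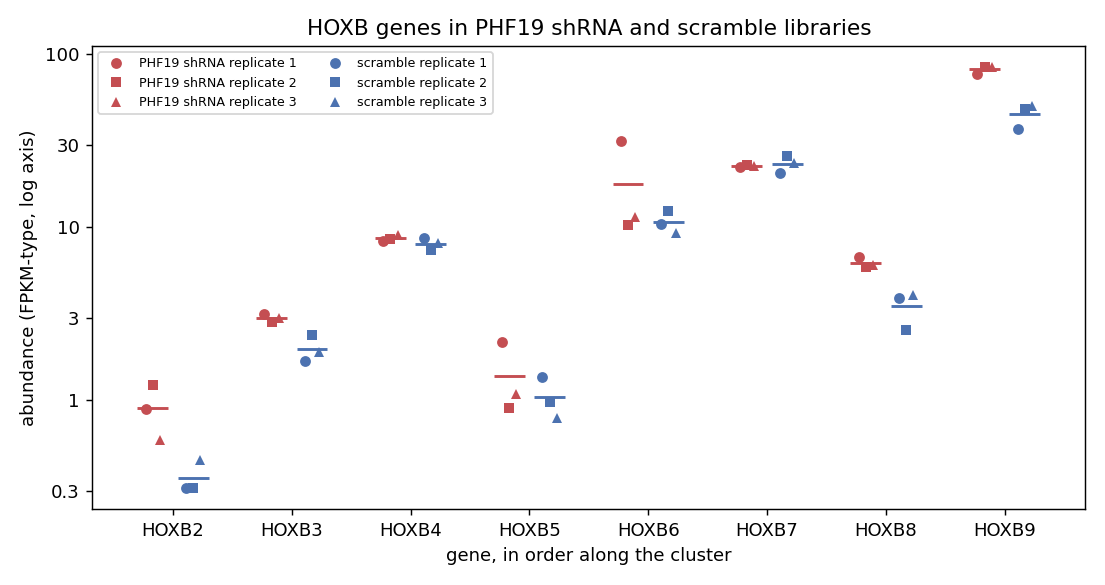
Abundance (FPKM-type, log axis) of each HOXB gene in the 3 PHF19 shRNA and 3 scramble libraries, with genes in order along the cluster; points are libraries and lines are means. HOXB2, HOXB3, HOXB8 and HOXB9 do not overlap between groups, and HOXB6 and HOXB5 are high in shRNA replicate 1 alone.

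The members fell into 3 kinds of behaviour between shRNA and scramble. HOXB9, HOXB8, HOXB3 and HOXB2 were higher in every shRNA library than in any scramble library, with ratios of means from 1.51 to 2.53. HOXB4 and HOXB7 had ratios of 1.07 and 0.975. HOXB6 and HOXB5 had ratios of 1.66 and 1.33 that came from a single shRNA library.

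HOXB9 had 76.73, 84.27 and 84.61 in shRNA libraries, against 36.96, 48.09 and 50.58 in scramble libraries. The lowest shRNA library lay well above the highest scramble library. The difference on the log2 scale was 0.85 (SE 0.14), and it was 0.72 to 0.94 when each library was left out in turn. HOXB8, known for blocking myeloid differentiation when overexpressed in mouse cells, had 6.76, 5.86 and 6.03 in shRNA libraries, against 3.92, 2.56 and 4.06 in scramble libraries. All 3 shRNA libraries were close together, and scramble replicate 2 was the low one of its group. Its difference was 0.69 (SE 0.17), with 0.53 to 0.78 when each library was left out in turn.

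HOXB3, a gene of the hindbrain and of blood progenitors, had 3.17, 2.84 and 3 in shRNA libraries, against 1.69, 2.37 and 1.89 in scramble libraries. The groups stood apart, with a difference of 0.43 (SE 0.16) that became 0.59 with a pseudocount of 0.1 in place of 1. HOXB2 had 0.89, 1.23 and 0.59 in shRNA libraries, against 0.31, 0.31 and 0.45 in scramble libraries. Its values are low, it did not reach an abundance of 1 in 3 libraries, and it was the 1 member outside the fit. Its difference was 0.48 on the log2(abundance + 1) scale, which understates the ratio of 2.53 for a gene this low.

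HOXB4, known for expanding blood stem cells when overexpressed, had 8.39, 8.52 and 9.02 in shRNA libraries, against 8.66, 7.4 and 8.08 in scramble libraries. HOXB7 had 22.43, 22.95 and 22.69 in shRNA libraries, against 20.52, 25.71 and 23.57 in scramble libraries. For both genes the groups overlapped, with differences of 0.09 (SE 0.13) and -0.03 (SE 0.12). HOXB4 and HOXB7 lie inside the cluster, with HOXB2 and HOXB3 before them and HOXB8 and HOXB9 after them. The members are taken as chosen with these knockdown values known, so no pattern along the cluster is read from this.

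HOXB6, a gene of blood progenitors, had 31.54, 10.29 and 11.44 in shRNA libraries, against 10.52, 12.4 and 9.24 in scramble libraries. Replicate 1 was 2.9 times the mean of shRNA replicates 2 and 3, which lay within the scramble range. HOXB5, which marks long-term blood stem cells in the mouse, had 2.17, 0.9 and 1.08 in shRNA libraries, against 1.36, 0.98 and 0.79 in scramble libraries. Here too replicate 1 was high, at 2.19 times the mean of the others. Without shRNA replicate 1 the HOXB6 difference was 0.03 in place of 0.51 (SE 0.36), and that of HOXB5 was -0.03 in place of 0.19 (SE 0.22). The library stood apart more widely: it was at least 2-fold above both other shRNA libraries for 1.61% of the 10900 genes tested, and at least 2-fold below both for 2.04%. The other 6 members had 0.909 to 1.14 times the mean of shRNA replicates 2 and 3 in it.

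Over all 8 members, 7 had a positive difference and the median was 0.45. The median was 0.43 over the 7 members in the fit and 0.03 over all genes tested. Without shRNA replicate 1 the median over all 8 members was 0.26. Groups did not overlap, with shRNA higher, for 4 of the 8 members and with shRNA lower for 0. HOXB2 was among those 4 but not among the genes tested. Of the 10900 genes tested, 18.9% were apart with shRNA higher and 13% with shRNA lower, 32% in all. Two-sided limma with an adjusted p under 0.05 called 4.24% of all genes tested higher and 1.28% lower, 5.51% in all. HOXB9 and HOXB8 were the members among those calls. This contrast is taken as used in choosing the members, so nothing is read from that count. The 7 members in the fit were those with an abundance of at least 1 in 3 libraries or more.

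The summed abundance of the 8 members was 152.08, 136.86 and 138.46 in shRNA libraries, against 83.94, 99.82 and 98.66 in scramble libraries. HOXB9 made up 57.7 ± 6.27% of that sum in shRNA and 47.8 ± 3.66% in scramble libraries (SD, n = 3 each). Its share overlapped between the groups, because shRNA replicate 1 had 50.5%, under the 51.3% of scramble replicate 3. HOXB7 made up 16.0 ± 1.12% in shRNA and 24.7 ± 0.985% in scramble libraries, with no overlap. The abundance of HOXB7 itself overlapped between the groups (22.7 and 23.3), so its lower share reflects the larger sum. That sum is largely HOXB9, and the members are taken as chosen with its knockdown values known, so no result on HOXB7 is read from its share. Apart from HOXB9, the remaining members summed to 75.35, 52.59 and 53.85 in shRNA libraries, against 46.98, 51.73 and 48.08 in scramble libraries.

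**Figure D2:**
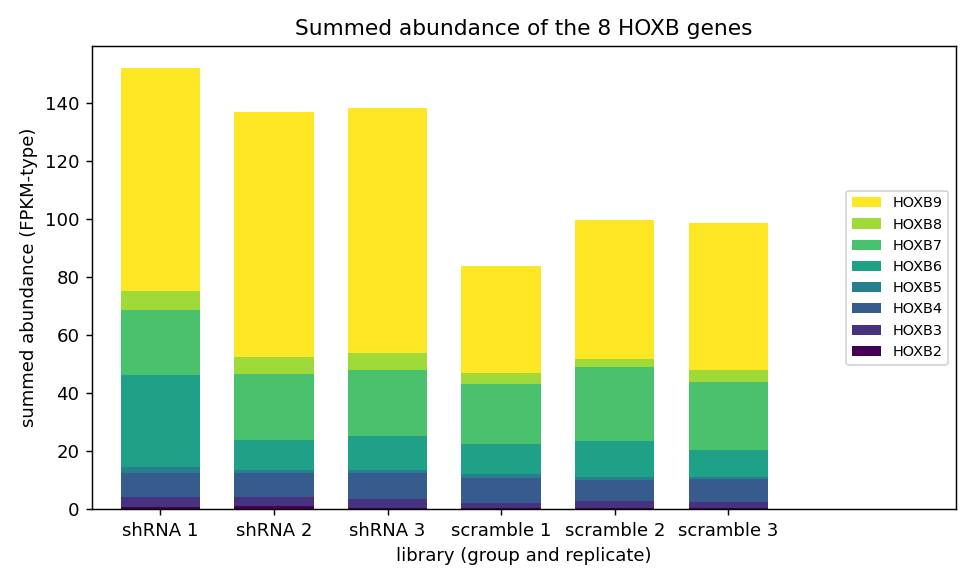
Stacked abundance (FPKM-type) of the 8 HOXB genes in each shRNA and scramble library. The bars reach 136.86 to 152.08 in shRNA and 83.94 to 99.82 in scramble libraries, HOXB9 is the largest block in every bar, and the HOXB6 block is widest in shRNA replicate 1.

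Exons of several members overlap other genes in GENCODE 29, which was also used for names, neighbours and 3′ UTRs. HOXB3 shares exonic sequence with HOXB4 and HOXB6 on the same strand, and with HOXB-AS1 and HOXB-AS3 on the opposite strand. HOXB2 overlaps HOXB-AS1, and HOXB5 and HOXB6 overlap HOXB-AS3, all on the opposite strand. HOXB4 also coincides with MIR10A and with the locus AC103702.1 on the same strand. Whether the authors' counting used strand is not stated, so reads of HOXB2, HOXB3, HOXB5 and HOXB6 cannot be told apart from those of their antisense partners, and the values of HOXB3, HOXB4 and HOXB6 are uncertain where their exons coincide. HOXB7 spans HOXB8 and HOXB9, and the 3 share no exonic sequence with another annotated gene.

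HOXB genes made up most of the summed abundance of the HOX genes listed in the knockdown table. HOX genes that were not listed have no value here, and the gene filter is not stated. The members were 84.5 ± 0.874% of the summed abundance of all listed HOX genes in shRNA and 79.2 ± 0.8% in scramble libraries (SD, n = 3 each). The other listed HOX genes, with HOXB13 counted among them, summed to 26.2 ± 1.32 in shRNA and 24.8 ± 3.31 in scramble libraries, and the groups overlapped. Of 29 genes of the HOXA, HOXC and HOXD clusters, 17 were in the table and 5 were abundant enough to be tested. None of the 5 passed limma (0 also at an unadjusted p under 0.05). The median difference over the listed genes with values above 0 in both groups was 0.01, and over the 5 tested it was 0. Most of the listed genes were too low to be tested, and the log2(abundance + 1) scale understates ratios for genes this low.

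HOXD4 was the highest of the listed HOX genes outside the HOXB cluster, at 13.1 ± 1.23 in shRNA and 11.5 ± 1.09 in scramble libraries (difference 0.17, SE 0.14, limma adjusted p = 0.486). HOXD3, a paralogue of HOXB3, had 2.14, 2.82 and 2.99 in shRNA libraries, against 1.14, 2.32 and 2.17 in scramble libraries, and its groups overlapped (difference 0.36, SE 0.20, limma adjusted p = 0.303). Without scramble replicate 1 the HOXD3 difference was 0.16. HOXA5 was 2.25 ± 0.153 and 2.69 ± 1.05 (limma adjusted p = 0.718), and HOXC4 was 1.35 ± 0.205 and 1.80 ± 0.427 (limma adjusted p = 0.425), with shRNA first in each pair. Whether HOXB9 or HOXB8 differed more than these genes was not tested. HOXB13, the last gene of the cluster, which lies at a distance and is not a member, had 2.38, 1.46 and 1.38 in shRNA libraries, against 1.2, 1.51 and 1.79 in scramble libraries (limma adjusted p = 0.73).

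**Figure D3:**
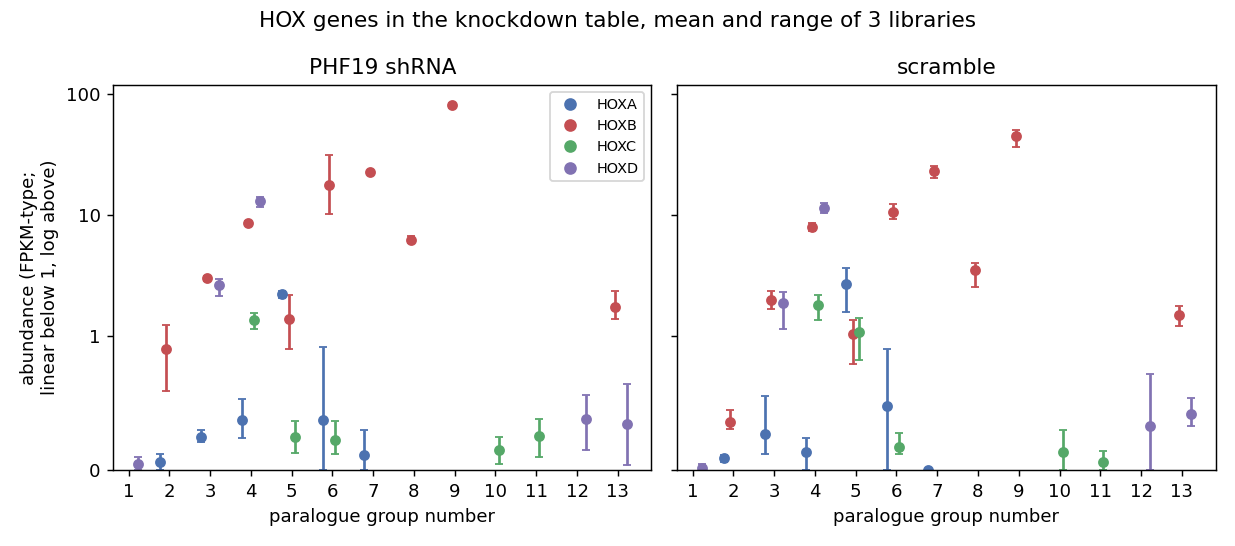
Abundance (FPKM-type; linear axis below 1, log above) of HOX genes in the knockdown table by paralogue group number, PHF19 shRNA on the left and scramble on the right; points are means of 3 libraries, bars their range, colours the 4 clusters. HOXB9 stands highest in both panels, and HOXD4 is the only gene of another cluster with a mean above 10.

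The neighbours of the cluster on chromosome 17 were read from a fixed list of 13 genes, of which 11 were in the knockdown table and 10 were tested. Of these 10, 4 were called higher and 0 lower in shRNA libraries, where 4.24% of all genes tested were called higher and 1.28% lower. The 4 lie on both sides of the cluster, 3 before it and 1 after it, with genes that were not called among them. SKAP1, an adaptor of T-cell receptor signalling and the nearest listed gene on the 3′ side, had 20.27, 16.18 and 15.09 in shRNA libraries, against 6.8, 8.97 and 7.77 in scramble libraries (difference 1.04, SE 0.16, limma adjusted p = 0.0127). The groups stood well apart. Without scramble replicate 1 its adjusted p was 0.0538.

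COPZ2, a subunit of the COPI vesicle coat, had 113.38, 53.69 and 59.92 in shRNA libraries, against 22.57, 24.6 and 22.58 in scramble libraries (difference 1.58, SE 0.24, limma adjusted p = 0.0137). All 3 shRNA libraries were above all scramble libraries, and replicate 1 was highest, as for HOXB6. NFE2L1, a transcription factor that induces proteasome genes, rose to 130 ± 32.0 in shRNA, against 60.5 ± 7.89 in scramble libraries (difference 1.07, SE 0.19, limma adjusted p = 0.0169, n = 3 each). CALCOCO2, an autophagy receptor on the HOXB13 side, rose to 24.6 ± 0.323 in shRNA, against 15.7 ± 2.21 in scramble libraries (difference 0.62, SE 0.13, limma adjusted p = 0.0295, n = 3 each). The COPZ2 call ended without scramble replicate 1, 2 or 3 (adjusted p 0.0511 to 0.0584), the NFE2L1 call without scramble replicate 1 or 2 (0.0808 and 0.0853), and the CALCOCO2 call with no filter (0.0554) and without scramble replicate 1 or 2 or shRNA replicate 2 or 3 (0.07 to 0.117).

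Between SKAP1 and NFE2L1 lie SNX11, a sorting nexin, and CBX1, which encodes a heterochromatin protein. SNX11 was 9.65 ± 0.989 in shRNA and 10.1 ± 0.821 in scramble libraries (limma adjusted p = 0.823), and CBX1 was 46.9 ± 4.5 in shRNA and 51.2 ± 2.89 in scramble libraries (limma adjusted p = 0.555). Beyond CALCOCO2, the ubiquitin-conjugating enzyme UBE2Z had a difference of 0.25 (SE 0.11, limma adjusted p = 0.205) and the ESCRT-II subunit SNF8 one of -0.31 (SE 0.12, limma adjusted p = 0.142).

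**Figure D4:**
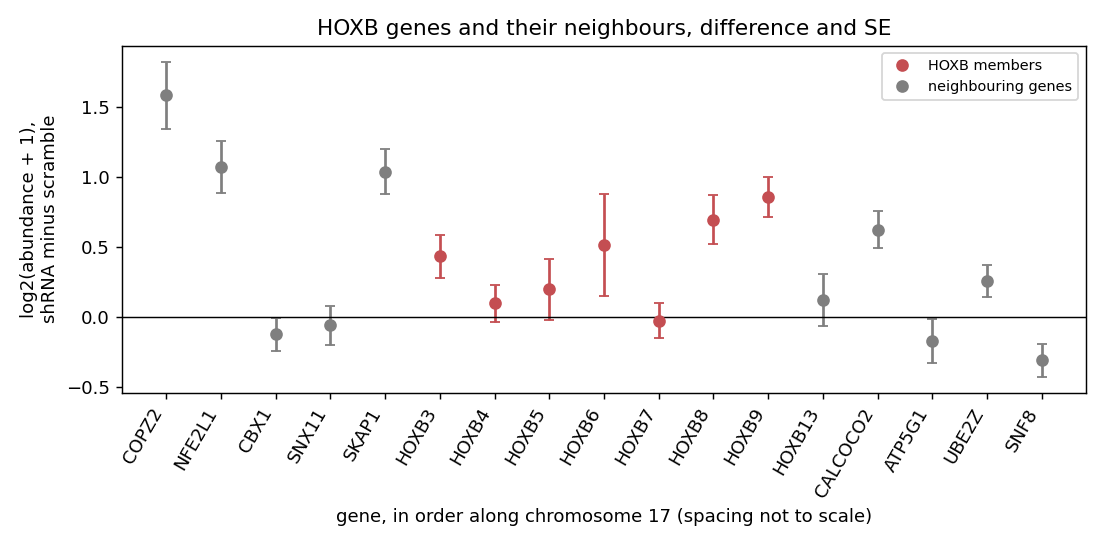
Difference in mean log2(abundance + 1), shRNA minus scramble, with limma's SE, for the HOXB genes in the fit and their listed neighbours in order along chromosome 17 (spacing not to scale). COPZ2, NFE2L1, SKAP1, HOXB8, HOXB9 and CALCOCO2 lie above 0.6, while CBX1, SNX11, HOXB4, HOXB7 and HOXB13 lie within 0.13 of 0.

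Proteins of the PBX, MEIS, PKNOX and TGIF families bind DNA with HOX proteins or compete for their sites. Of 11 such cofactor genes, 9 were tested in the knockdown table, and 0 passed limma (0 also at an unadjusted p under 0.05). PBX2 was 37.6 ± 3.70 in shRNA and 31.9 ± 1.16 in scramble libraries (difference 0.23, limma adjusted p = 0.275). MEIS3 was 5.09 ± 2.67 and 3.26 ± 0.535, TGIF2 8.44 ± 1.06 and 9.94 ± 0.600, and MEIS2 1.88 ± 0.316 and 2.43 ± 0.435, each with shRNA first (limma adjusted p = 0.349, 0.381 and 0.398). Replicate 1 of the shRNA group was again high for MEIS3, at 2.27 times the mean of the others.

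Regulators known to act on HOX genes formed a further list of 19, among them the MLL complex, which methylates histone H3 on lysine 4 at HOX genes, and the retinoic acid receptors. Of the 15 tested, 0 passed limma and 4 had an unadjusted p under 0.05, as had 24.1% of all genes tested. PSIP1, also called LEDGF, which tethers the MLL complex to chromatin, had 41.75, 59.49 and 56.53 in shRNA libraries, against 30.22, 39.37 and 38.3 in scramble libraries. The groups did not overlap, and its difference of 0.53 (SE 0.16) had limma adjusted p = 0.0869, and 0.0151 with the replicate number as a block. Without shRNA replicate 1 its adjusted p was 0.019. GMNN, or geminin, was 34.2 ± 7.10 in shRNA and 46.0 ± 3.19 in scramble libraries (limma adjusted p = 0.128), and ASH2L, a core subunit of the MLL complex, was 26.9 ± 2.44 and 21.1 ± 0.809 (limma adjusted p = 0.129). RXRA, the partner of the retinoic acid receptors, was 9.45 ± 3.69 in shRNA and 5.98 ± 0.335 in scramble libraries (limma adjusted p = 0.175).

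Genes with a profile like that of HOXB9 were found by the root mean square difference of log2(abundance + 1) over the 6 knockdown libraries, each gene centred on its own mean. The median over all genes tested was 0.459. The 5 closest were KCTD13, an adaptor of a cullin ubiquitin ligase, at 0.055, MOCOS, molybdenum cofactor sulfurase, at 0.064, the zinc finger gene ZNF768 at 0.071, RNPEPL1, an aminopeptidase-like gene, at 0.072, and APBB3, which encodes a protein that binds the amyloid precursor protein, at 0.08. KCTD13 was 17.3 ± 1.20 in shRNA and 9.41 ± 1.94 in scramble libraries, and RNPEPL1 was 65.1 ± 1.95 and 37.2 ± 5.45. Among the members, HOXB3 was nearest to HOXB9, at 0.249, and HOXB8 followed at 0.274.

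For HOXB8 the median over all genes tested was 0.421, and the 5 closest were SH3BGRL2 at 0.086, NUDT17 at 0.095, ZNF837 at 0.097, and GLTPD2 and ANKRD11, each at 0.098. ANKRD11, a chromatin regulator, was 48.4 ± 4.07 in shRNA and 29.4 ± 4.27 in scramble libraries. HOXB9 ranked 1199 in likeness to HOXB8, and HOXB3 ranked 682 in likeness to HOXB9. No other member in the fit was among the 5 genes closest to HOXB9 or to HOXB8 over these 6 libraries. Genes closest to the other members were not sought.

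Between PHF19 overexpression and empty vector, values were at hand for HOXB3, HOXB4, HOXB5, HOXB6 and HOXB8, which is 5 of the 8 members. HOXB2, HOXB7 and HOXB9 were not found by symbol in the overexpression table. Most values of the 5 listed members were exactly 0. HOXB4 was listed at 5.82 and 5.44 in overexpression libraries, against 0 in empty vector replicates 3, 4 and 5. The 2 overexpression libraries were close together and the groups did not overlap. HOXB5 was listed at 1.52 and 1.08 in overexpression libraries, against 0 in all 3 empty vector libraries. HOXB3 was listed at 0 and 1.28 in overexpression libraries and at 0 in all 3 empty vector libraries. HOXB8 was listed at 0 in all 5 libraries.

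HOXB6 was listed at 0 and 5.75 in overexpression libraries, against 11.7, 9.44 and 0 in empty vector libraries. Both groups held a 0 and they overlapped. Its difference was -0.97 (SE 1.57, limma adjusted p = 0.843), and it ran from -2.35 to 0.40 when each library was left out in turn. With either group at 0 no fold is given for HOXB4 or HOXB5. HOXB4 and HOXB5 passed the filter on low values only through the 2 overexpression libraries, so they were tested only because that group was high, and their separation is a description. For that reason no p-value of this fit is given for either gene. Of the 10279 genes tested, 0.613% were called higher and 0.302% lower, 0.914% in all, and 23.1% did not overlap with overexpression higher. Nothing is read from these shares for the members. The authors' deposited table gives p-values from a test that is not stated. They are 0.39 for HOXB4, 0.906 for HOXB5, 0.00247 for HOXB3, 0.0225 for HOXB6 and 0.253 for HOXB8, which is at 0 throughout.

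**Figure D5:**
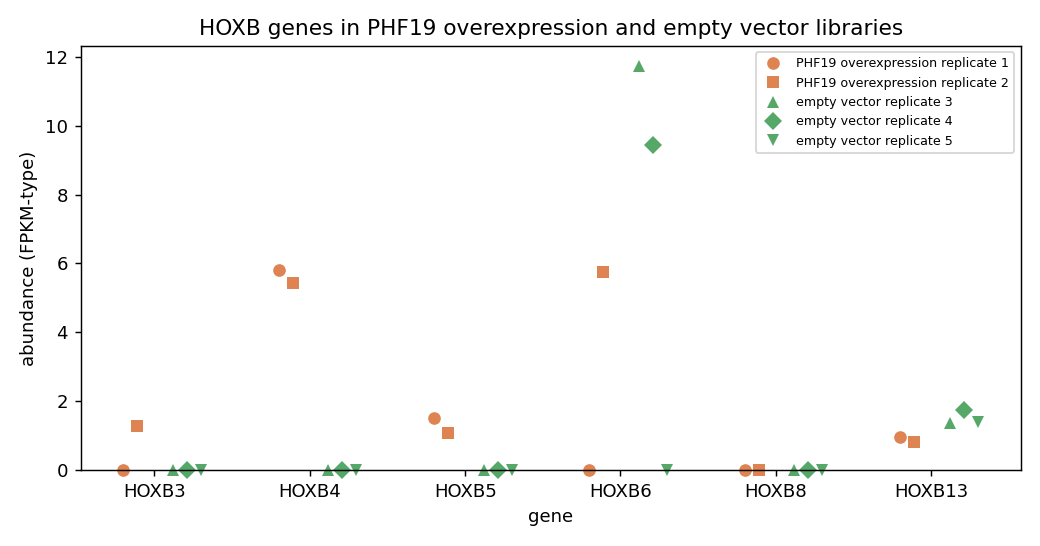
Abundance (FPKM-type, linear axis) of the listed HOXB members and HOXB13 in each PHF19 overexpression and empty vector library; every point is 1 library. HOXB4 and HOXB5 are at 0 in all 3 empty vector libraries, HOXB8 is at 0 in all 5 libraries, and HOXB6 is at 0 in 1 library of each group.

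A 0 was also listed in that table for genes that were abundant elsewhere. HOXB8 had 2.56 to 6.76 and HOXB4 7.4 to 9.02 over the 6 knockdown-table libraries of the same cell line, although the tables were normalised separately. Of 6759 genes that had at least 5 in every scramble library and were in both tables, 1137 (16.8%) were listed at 0 in at least 1 library of the overexpression table. Of these 6759 genes, 38 had the pattern of HOXB4, with 0 in all 3 empty vector libraries and a value above 0 in both overexpression libraries, and 22 had the reverse. MZB1, a plasma cell gene of high abundance, was listed at 0 in empty vector replicates 3 and 4 and at 422 in replicate 5. The HOXB4 values in this comparison carry that limit. Some other measures differed between the groups as well. The abundances of all listed genes summed to 498485 and 502349 in overexpression libraries, against 425155 to 426112 in empty vector libraries, and 762 and 797 genes were listed at 0 in overexpression libraries, against 944 to 961 in empty vector libraries. The plasma cell markers, 10 of 11 listed, summed to 4390 to 11600 in overexpression and 2550 to 3560 in empty vector libraries. JCHAIN was the most abundant of them, at 9837 and 2623 in overexpression and 1686, 1939 and 1700 in empty vector libraries. Those sums rest largely on this gene. The markers of other cells, 4 of 14 listed, summed to 6.28 to 14.1 in overexpression and 8.75 to 10.2 in empty vector libraries. For these markers the groups overlapped. The part of these shifts in the overexpression values was not tested.

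Around the cluster, 0 of 10 neighbours tested in the overexpression table passed limma, and 1 had an unadjusted p under 0.05, as had 11.5% of all genes tested. SKAP1 had 19.0 and 20.7 in overexpression libraries, against 12.3, 12.2 and 28.1 in empty vector libraries, and the groups overlapped (limma adjusted p = 0.834). NFE2L1 had 112 and 91.8 in overexpression libraries, against 68.7, 77.0 and 83.2 in empty vector libraries, with no overlap (difference 0.41, SE 0.15, limma adjusted p = 0.431). HOXB13 had 0.961 and 0.827 in overexpression libraries, against 1.37, 1.74 and 1.41 in empty vector libraries, again with no overlap (difference -0.40, SE 0.18, limma adjusted p = 0.49). Groups did not overlap for 34.2% of all genes tested in this table, with overexpression lower for 11.1%. UBE2Z was 45.9 ± 2.18 in overexpression and 38.5 ± 1.5 in empty vector libraries (limma adjusted p = 0.464), and SNF8 57.0 ± 8.77 and 82.5 ± 19.9 (limma adjusted p = 0.542). COPZ2 was listed at 43.3 and 0 in overexpression libraries, against 19.2, 24.2 and 26.8 in empty vector libraries.

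None of the 7 HOX cofactors and 13 HOX regulators tested in the overexpression table passed limma, and 1 cofactor and 2 regulators had an unadjusted p under 0.05. MEIS2 was 2.29 ± 0.0846 in overexpression (n = 2) and 3.66 ± 0.371 in empty vector libraries (n = 3), with limma adjusted p = 0.384. PBX3 and PKNOX1 had differences of 0.26 and 0.34 (limma adjusted p = 0.547 and 0.675). ASH2L was 28.6 ± 3.16 and 21.1 ± 1.0 (limma adjusted p = 0.374), and MLLT3, a subunit of the super elongation complex, 12.4 ± 0.669 and 25.1 ± 8.52 (limma adjusted p = 0.391), overexpression first in each pair. RARA, the retinoic acid receptor alpha, had 79.7 and 64.8 in overexpression libraries, against 24.5, 28.4 and 59.2 in empty vector libraries (difference 1.03, SE 0.43, limma adjusted p = 0.474). Both overexpression libraries were above all 3 empty vector libraries, of which replicate 5 was the high one. PSIP1 had 61.3 and 61.0 in overexpression libraries, against 37.4, 38.7 and 56.2 in empty vector libraries (limma adjusted p = 0.49, and 0.0423 without empty vector replicate 5). The antisense gene HOXB-AS3 was listed at 0 and 1.03 in overexpression libraries, against 0, 0 and 1.71 in empty vector libraries. HOXD4 and HOXD13 did not pass (limma adjusted p = 0.915 and 0.651).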

How the data were processed

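The 2 deposited tables hold abundances taken here as FPKM, that is, as scaled by the authors for length and depth. No header states the unit, so RPKM or TPM is possible too. Each table has a column of p-values for its genes, per the file headers; which test the authors ran is not stated. Reads were aligned with TopHat to hg19, per the submitters' processing notes; no quantifier, annotation or gene filter is stated there. The annotation used here is of GRCh38, so no coordinates are printed. Depth is unknown because no counts are given, and no counting interval was made. In the knockdown arm 24 symbols read as dates and match no gene name.

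Each arm was fitted within its own table by limma 3.58.1 (R 4.3.3) with trend and robust variances on log2(value + 1), two-sided, treated minus control, for genes with at least 1 in 3 (knockdown, 10900 genes) or 2 (overexpression, 10279 genes) libraries, with p-values adjusted by Benjamini-Hochberg across every gene tested and called under 0.05. The fit was tested on simulated data with the same spread for every gene and no value of 0. That test does not cover genes listed at 0 or genes of wide spread. Levels are arithmetic means ± SD. No median is given for the members in the overexpression arm, because 4 of the 5 listed were at 0 in a whole group. Python 3.11.15, pandas 2.3.3, numpy 2.4.6 and matplotlib 3.10.9 made the other tables and plots.

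Members and lists were chosen with earlier results of these data known. Named were all members, PHF19, HOXB13, up to 4 genes per list with the smallest adjusted p in each arm, and the 5 genes most like HOXB9 and HOXB8. Further genes (CBX1, SNX11, UBE2Z, SNF8, HOXB13, SKAP1 and COPZ2 in the overexpression arm, MZB1, JCHAIN, KRT18) were named after their values were seen. A few genes of the lists are not reported here by name.

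Equal replicate numbers in the shRNA and scramble groups went with deviations from the group means that correlated at 0.341, 0.270 and 0.273 across genes, against -0.277 to 0.0936 for other pairs. The pairing comes from the data, not from a label, and a blocked fit on those numbers is an alternative. Other alternatives were median-of-ratios scaling, a pseudocount of 0.1, no filter, genes listed at 0 left out, limma without trend or robust variances, and each library left out.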

Additional observations from a re-analysis of the deposited data

How the results depend on the processing

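Between shRNA and scramble 601 genes passed (462 higher and 139 lower), against 269 with no filter, 1295 with the replicate block (599 of the 601 among them) and 54 to 629 when each library was left out in turn, with 54, 58 and 164 without scramble replicates 1, 2 and 3 and 285 and 180 without shRNA replicates 2 and 3. Between overexpression and empty vector 94 genes passed, against 61 with a pseudocount of 0.1, 107 to 350 when each library was left out (148 without overexpression replicate 1 and 350 without empty vector replicate 5), and 0 with genes listed at 0 left out (limma; 1201 of 8665 at an unadjusted p under 0.05). The median of the 8 HOXB members in the knockdown table was 0.453, and 0.256 to 0.515 when each library was left out; the lowest was without shRNA replicate 1. Apart from PHF19 and PSIP1, the replicate block changed no call of a gene named with a test in the knockdown comparison. COPZ2 passed in the overexpression table without overexpression replicate 1 (difference -4.60, limma adjusted p = 0.0254), where the remaining library is listed at 0, and PSIP1 without empty vector replicate 5 (limma adjusted p = 0.0423); a lone library was assumed to vary like the others. The cause was not tested. No HOXB member had a value when genes listed at 0 were left out of the overexpression table. No paired analysis was possible between overexpression and empty vector because the groups share no replicate number. Differences that did not pass also moved when each library was left out: PHF19 from -0.54 to -0.28, HOXD4 from 0.10 to 0.24 and PBX2 from 0.15 to 0.27 in the knockdown comparison, and NFE2L1 from 0.27 to 0.56 and PKNOX1 from -0.05 to 0.72 in the overexpression comparison. Depth is unknown, so the counting error of low values is unknown too.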

Other observations

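Some HOX genes outside the HOXB cluster were too low to be tested. HOXC5 had 0.37, 0.25 and 0.13 in shRNA libraries, against 1.41, 0.98 and 0.82 in scramble libraries, and was the 1 gene of 17 listed in the other clusters whose groups did not overlap. Of all genes tested in that table, 32% did not overlap, 13% with shRNA lower, so nothing particular is read from that count. HOXC5 was named after its values were seen.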
